A study of Homo sapiens with 12 samples.

Results

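The mRNAs of 9 factors of nonsense-mediated mRNA decay (NMD) were examined in HCT116 cells, a human colorectal carcinoma line, after silencing of hnRNP U. The 9 genes, UPF1, UPF2, UPF3A, UPF3B, SMG1, SMG5, SMG6, SMG8 and SMG9, were taken by gene identifier from a count table of 62703 genes. All 9 were among the 15920 genes with enough counts to be tested. Cells were transfected for 48 h with a control siRNA (labelled wild-type) or with an siRNA against HNRNPU, and RNA was sequenced from total lysate (total RNA, the input) and from heavy polysomes (HP RNA, the mRNAs loaded with many ribosomes). Each of the 4 groups, control siRNA total RNA, hnRNP U siRNA total RNA, control siRNA HP RNA and hnRNP U siRNA HP RNA, held 3 libraries, 1 from each of 3 experiments. The 4 groups share the cell line and the transfection, and the sources used here do not say which of the study's hnRNP U siRNA sequences was used for these libraries.

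NMD removes mRNAs on which a ribosome stops too early. UPF1, an RNA helicase, is recruited at the stalled stop codon, and UPF2 links it to UPF3B or UPF3A, which bind the exon junction complex left behind by splicing. The kinase SMG1, held in check by its partners SMG8 and SMG9, phosphorylates UPF1. Phosphorylated UPF1 is then bound by SMG6, an endonuclease that cuts the mRNA, and by SMG5, which helps bring in the decapping and deadenylation enzymes. Several of these factors, UPF1, UPF2, UPF3B, SMG1, SMG5 and SMG6 among them, are known to be encoded by mRNAs that are themselves NMD substrates, so their levels are read as a feedback of the pathway.

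On GRCh38, UPF1 lies on chromosome 19 from 18831959 to 18868230 (+ strand), UPF2 on chromosome 10 from 11920022 to 12043170 (− strand), UPF3A on chromosome 13 from 114281601 to 114305817 (+ strand) and UPF3B on chromosome X from 119834022 to 119852998 (− strand). SMG1 lies on chromosome 16 from 18804860 to 18926408 (− strand), SMG8 on chromosome 17 from 59209400 to 59215239 (+ strand) and SMG9 on chromosome 19 from 43727983 to 43754962 (− strand). SMG5 lies on chromosome 1 from 156249224 to 156282825 (− strand) and SMG6 on chromosome 17 from 2059839 to 2303785 (− strand). The canonical transcripts run from 2343 nt (UPF3B) to 16062 nt (SMG1).

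The study asked how hnRNP U acts on mRNAs with RNA G-quadruplexes (RG4s), structures formed by runs of G. An RG4 motif was searched for as 4 runs of at least 3 G separated by loops of 1 to 7 nt, on the transcribed strand. UPF1 and SMG6 hold it in the coding sequence of the canonical transcript, and none of the other 7 members holds it in any annotated transcript. The motif was present in the canonical transcript of 26.7% of 12745 tested protein-coding genes, and in any annotated transcript of 44.6%. The study defined RG4s otherwise, by experimental data sets and by scored predictions of QGRS Mapper. It placed most RG4s of its mitochondrial mRNAs in the 3′ UTR. Both stretches are shown because they are the members' matches to the motif searched here. The motif is in capitals, 5′ to 3′, at chr19:18832386-18832412 (+) and at chr17:2300071-2300093 (−).
UPF1: GGGAGGCCCGGGCGGCGCGGGCGCGGG
SMG6: tGGGAAAAGGGGAGGGGGTGAGGGa

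An siRNA can also lower other mRNAs whose 3′ UTR pairs with its seed, bases 2 to 8 of a strand. The 3′ UTRs were therefore searched, on the transcribed strand, for the 7-nt matches to both strands of the control siRNA and of the study's hnRNP U siRNAs 1 and 2. The match of the antisense strand is CCCAAAT for the control siRNA, GTATGCT for hnRNP U siRNA 1 and TTGTAGT for hnRNP U siRNA 2. That of the sense strand is GCCGGAC for the control siRNA, AGTTCTA for hnRNP U siRNA 1 and CTTTTCG for hnRNP U siRNA 2. The match of the control siRNA antisense strand was present in 4 of 9 members, against 15.2% of the 12745 genes, and that of hnRNP U siRNA 2 in 1 member, against 13.1%. No member holds the match of hnRNP U siRNA 1 (7.3% of genes) or of a sense strand (11.3% for siRNA 1, 2.58% for siRNA 2 and 2.14% for the control). The 5 sites are shown, match in capitals and 5′ to 3′, because they are where a strand of these siRNAs could pair with a member's mRNA. They lie at chr19:18867606-18867612 (+) in UPF1, chr13:114305593-114305599 (+) in UPF3A, chr17:59215093-59215099 (+) in SMG8, chr19:43730247-43730253 (−) in SMG9 and chrX:119834390-119834396 (−) in UPF3B.
UPF1, control siRNA: caccgaaagCCCAAATtgggagctc
UPF3A, control siRNA: aagaatttgCCCAAATaacagaaat
SMG8, control siRNA: ctgtgttttCCCAAATccaaaatgt
SMG9, control siRNA: tctcgccacCCCAAATtaatccatc
UPF3B, hnRNP U siRNA 2: agcatgtccTTGTAGTacaggtaca

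Library totals ran from 30305012 to 39761103 counts. HNRNPU, the targeted gene, fell from 1030 ± 67.9 to 159 ± 9.47 CPM, counts relative to the scaled size of the library, in total RNA and from 1080 to 78.3 CPM in HP RNA (means, SD, n = 3), lower in 3 of 3 experiments. The CPM of the cell-type markers that follow are relative to the unscaled library total. All libraries carried the epithelial markers EPCAM (375 to 805 CPM) and KRT8 (1700 to 3020 CPM). VIL1 was at 0 in 9 of 12 libraries, the leukocyte genes PTPRC and CD3E in 11 of 12 each, and the fibroblast gene DCN in all 12. The 8 markers of other cells summed to 16.7 to 18.5 CPM in control siRNA total RNA and 10.2 to 11.3 CPM in hnRNP U siRNA total RNA, nearly all of it COL1A1, and to 14.3 to 16.1 and 6.72 to 8.52 CPM in HP RNA. The part of this difference in the results was not tested. The 7 epithelial markers summed to 3120 to 3250 and 3030 to 3260 CPM in total RNA and to 5100 to 5250 and 4960 to 5320 CPM in HP RNA.

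**Figure D1:**
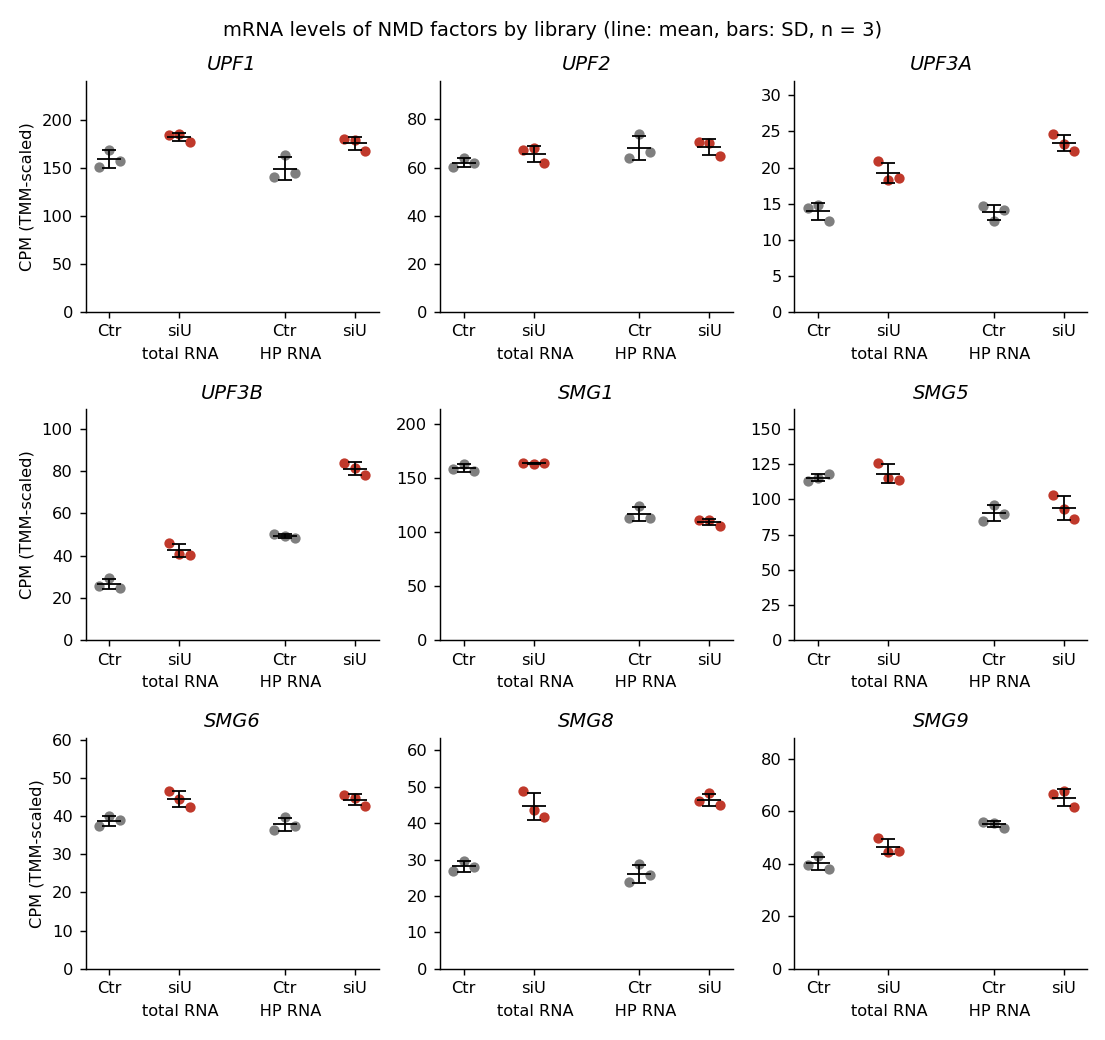
CPM (y axis, from 0) of each NMD factor in the 12 libraries, by control (Ctr, grey) or hnRNP U (siU, red) siRNA and by fraction; points are libraries, lines means and bars SD (n = 3). UPF3B, SMG8 and UPF3A stand clearly above their controls in both fractions, and UPF3B and SMG9 are higher, SMG1 and SMG5 lower, in HP RNA than in total RNA.

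In total RNA, hnRNP U silencing raised the mRNAs of 6 of the 9 NMD factors and lowered none. UPF3B, the main EJC-binding UPF3 protein, and SMG8, the SMG1 regulator, rose most, by about 1.6-fold, followed by UPF3A at 1.38-fold. SMG9, SMG6 and UPF1 rose by 1.14- to 1.15-fold. UPF2, SMG1 and SMG5 did not pass the test. Over all tested genes, 28% were called higher and 29.3% lower in this comparison (edgeR's quasi-likelihood test, adjusted p under 0.05), and the median log2 fold change was 0.19 for the members and 0 for all genes. Libraries were scaled to each other, so a shift shared by most mRNAs would not be seen, and in bulk RNA fewer cells of a kind and less RNA per cell cannot be told apart.

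UPF3B stood at 25.6, 29.4 and 24.7 CPM with control siRNA and at 46.1, 41.0 and 40.4 CPM with hnRNP U siRNA (experiments 1 to 3). All 3 silenced libraries were above all 3 controls. The log2 fold change was 0.67 (SE 0.07, 95% confidence interval 0.54 to 0.81, adjusted p = 2.2e-07, edgeR quasi-likelihood). UPF3B is the member that carries the seed match of hnRNP U siRNA 2.

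UPF3A, the related protein that binds the exon junction complex more weakly, stood at 14.4, 14.8 and 12.6 CPM with control siRNA and at 20.9, 18.3 and 18.6 CPM with hnRNP U siRNA. The groups did not overlap. Its log2 fold change was 0.46 (SE 0.07, adjusted p = 5.7e-05, edgeR quasi-likelihood). The 3 processed copies of UPF3A held 0 to 3 counts per library, against 416 to 823 for the gene.

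SMG8 stood at 26.8, 29.7 and 28.0 CPM with control siRNA and at 48.8, 43.6 and 41.7 CPM with hnRNP U siRNA, again with no overlap. Its log2 fold change was 0.66 (SE 0.06, adjusted p = 9.5e-08, edgeR quasi-likelihood). An unnamed protein-coding gene on the same strand overlaps 422 nt of SMG8 exons and held 0 counts. Reads in that stretch may have been dropped, so the level of SMG8 is uncertain. SMG9, the other subunit that restrains SMG1, went from 39.7, 43 and 38.0 CPM to 49.8, 44.7 and 45.0 CPM. The highest control library lay below the lowest silenced library, and the log2 fold change was 0.21 (SE 0.06, adjusted p = 0.0046, edgeR quasi-likelihood). SMG1 itself was at 158, 163 and 156 CPM with control siRNA and at 164, 163 and 164 CPM with hnRNP U siRNA. These values overlapped, and the log2 difference was 0.03 with a 95% confidence interval of −0.05 to 0.12 (adjusted p = 0.46, edgeR quasi-likelihood).

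UPF1 rose from 151, 169 and 157 CPM to 184, 185 and 177 CPM. The groups did not overlap, and the log2 fold change was 0.19 (SE 0.04, adjusted p = 0.0018, edgeR quasi-likelihood). UPF2, its bridge to the exon junction complex, was at 60.2 to 64.0 CPM with control siRNA and 62.0 to 67.9 CPM with hnRNP U siRNA, overlapping ranges with a log2 difference of 0.08 (95% confidence interval −0.02 to 0.18, adjusted p = 0.16, edgeR quasi-likelihood). Without the third hnRNP U siRNA library, UPF2 passed (log2 fold change 0.12, adjusted p = 0.045, edgeR quasi-likelihood).

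Of the effectors, SMG6 rose and SMG5 did not pass. SMG6, the endonuclease, was at 37.4, 40.0 and 39.0 CPM with control siRNA and at 46.5, 44.5 and 42.5 CPM with hnRNP U siRNA, with no overlap and a log2 fold change of 0.19 (adjusted p = 0.0028, edgeR quasi-likelihood). SMG5, the adaptor to decay enzymes, was at 113 to 118 CPM and at 114 to 126 CPM. These ranges overlapped, and the log2 difference was 0.03 (95% confidence interval −0.06 to 0.13, adjusted p = 0.54, edgeR quasi-likelihood). Whether the changes of SMG6 and SMG5 differ from each other was not tested. HIC1, on the opposite strand, overlaps 2419 nt of SMG6 exons and held 5 to 22 counts, against 1091 to 1747 for SMG6.

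Of the 6 members known as NMD substrates, UPF1, UPF3B and SMG6 rose in total RNA and UPF2, SMG1 and SMG5 did not pass. The 3 other members, UPF3A, SMG8 and SMG9, all rose. Of all tested genes, 28% were called higher and 29.3% lower in total RNA. Whether known substrates and other members differ was not tested. Sequence features that can trigger NMD were counted in the members beside all genes. None has an exon junction more than 50 nt after the stop codon of its canonical transcript (0.33% of the 12745 genes do), SMG5 and SMG9 have an upstream open reading frame (34.6% of genes), and 6 of 9 have a 3′ UTR over 1000 nt (58.1% of genes). A transcript annotated as an NMD substrate is listed for 4 of 9, UPF1, SMG1, SMG8 and SMG9 (47% of genes), and not for UPF2, UPF3B, SMG5 or SMG6, so the annotation cuts across the members known as substrates. The 3′ UTRs run from 228 nt in SMG8 to 4709 nt in SMG1, with a median of 1363 nt in the members and 1318 nt in all.

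All 4 members with the control siRNA seed match, UPF1, UPF3A, SMG8 and SMG9, were among the 6 that rose. Over all tested protein-coding genes the 1936 with this match had a median log2 fold change of −0.03 in total RNA, as had the 10809 without it. With the match 30.9% were higher and 34.7% lower, and without it 26.9% were higher and 33.4% lower. The 2 members with an RG4 motif both rose by 0.19 on the log2 scale. Genes with the motif in any transcript had a median of −0.04 and genes without it −0.02. In total RNA 26.5% of genes with the motif were higher, against 28.3% of those without it. The share called lower was larger with the motif than without it. The part of either sequence feature in the members' changes was not tested.

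**Figure D2:**
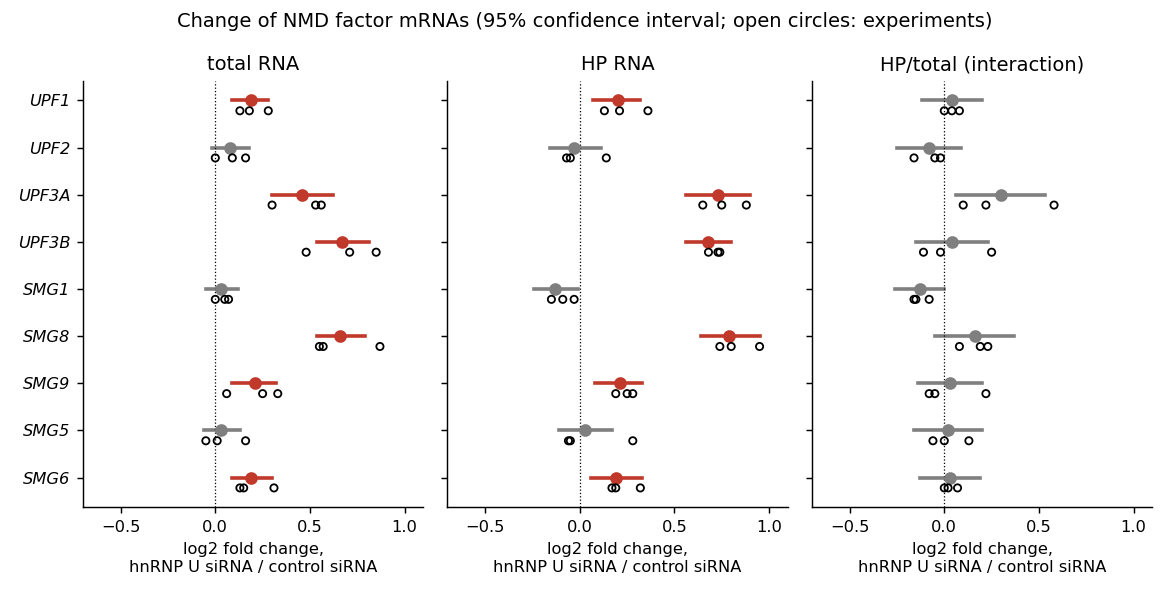
Log2 fold change of hnRNP U over control siRNA (x axis) for each NMD factor in total RNA, in HP RNA and for the difference between the fractions (HP/total). Filled points are edgeR estimates with 95% confidence intervals, red where the adjusted p was under 0.05, and open circles are the 3 experiments; 6 members are red in both fractions and none in HP/total.

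In HP RNA, the same 6 factors rose as in total RNA and no member was called lower (1, SMG1, with a replicate block). SMG8 (1.73-fold), UPF3A (1.66-fold) and UPF3B (1.61-fold) again led, and SMG9, UPF1 and SMG6 rose by 1.14- to 1.15-fold. Over all genes, 25.5% were called higher and 26.3% lower. The members' median log2 fold change was 0.20 against 0.01 for all genes. The libraries of HP RNA come from the same experiments as those of total RNA.

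SMG8 in HP RNA stood at 23.8, 28.8 and 25.7 CPM with control siRNA and at 46.0, 48.3 and 44.9 CPM with hnRNP U siRNA. UPF3A stood at 14.6, 12.6 and 14.1 CPM and at 24.6, 23.3 and 22.3 CPM. UPF3B stood at 50.4, 49.2 and 48.5 CPM and at 84.0, 81.6 and 78.0 CPM. In all 3 the silenced libraries lay far above the controls, with log2 fold changes of 0.79 (SE 0.07, adjusted p = 6.7e-08) for SMG8, 0.73 (SE 0.08, adjusted p = 7.9e-07) for UPF3A and 0.68 (SE 0.06, adjusted p = 2.1e-08) for UPF3B by edgeR's quasi-likelihood test.

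The smaller changes were close to those in total RNA. SMG9 rose from 53.8 to 56.1 CPM to 61.6 to 67.7 CPM (log2 fold change 0.21, adjusted p = 0.0068), and UPF1 from 140 to 163 CPM to 168 to 180 CPM (0.20, adjusted p = 0.009), by edgeR's quasi-likelihood test. SMG6 rose from 36.4 to 39.8 CPM to 42.7 to 45.4 CPM (0.19, adjusted p = 0.016, edgeR quasi-likelihood). The call of SMG6 was lost without control siRNA HP library 1 (adjusted p = 0.053), control siRNA HP library 3 (adjusted p = 0.058) or hnRNP U siRNA HP library 1 (adjusted p = 0.062), with log2 fold changes of 0.17 to 0.18 in edgeR.

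The SMG1 mRNA stood at 113, 124 and 113 CPM with control siRNA and at 111, 111 and 106 CPM with hnRNP U siRNA in HP RNA. All silenced libraries were below all controls, though by little, and the log2 difference of −0.13 (95% confidence interval −0.24 to −0.01) did not pass (adjusted p = 0.063, edgeR quasi-likelihood). With the experiment as a replicate block it passed as lower (−0.13, adjusted p = 0.014, edgeR quasi-likelihood). Without the third control siRNA HP library it passed (−0.16, adjusted p = 0.049, edgeR quasi-likelihood). UPF2 and SMG5 overlapped between the siRNAs, with log2 differences of −0.03 (95% confidence interval −0.16 to 0.11) and 0.03 (−0.11 to 0.17).

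HP/total compares the siRNA effect in HP RNA with that in total RNA. It asks whether a message's loading on heavy polysomes, relative to other mRNAs, changed beyond its level. Libraries were scaled to each other, so a change in loading shared by most mRNAs would not be seen. The study reports a slight change of the polysome profile after silencing. Of the 9 NMD factors, 0 passed in edgeR's quasi-likelihood test and 0 in DESeq2, and 1, UPF3A, had an unadjusted p under 0.05 in edgeR. Few genes passed at all, 0.0817% of those tested as higher and 0.0817% as lower. For UPF3A the log2 HP/total ratio was 0.02, −0.23 and 0.16 with control siRNA and 0.24, 0.35 and 0.26 with hnRNP U siRNA. The silenced cultures were all above the controls, and the difference was 0.30 (95% confidence interval 0.06 to 0.53, adjusted p = 0.52, edgeR quasi-likelihood). SMG8 differed by 0.16 (−0.05 to 0.37) and SMG1 by −0.13 (−0.26 to 0.00), each in the same direction in 3 of 3 experiments. The other 6 members lay within 0.08 of 0, and their intervals reached no further than −0.25 and 0.23.

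**Figure D3:**
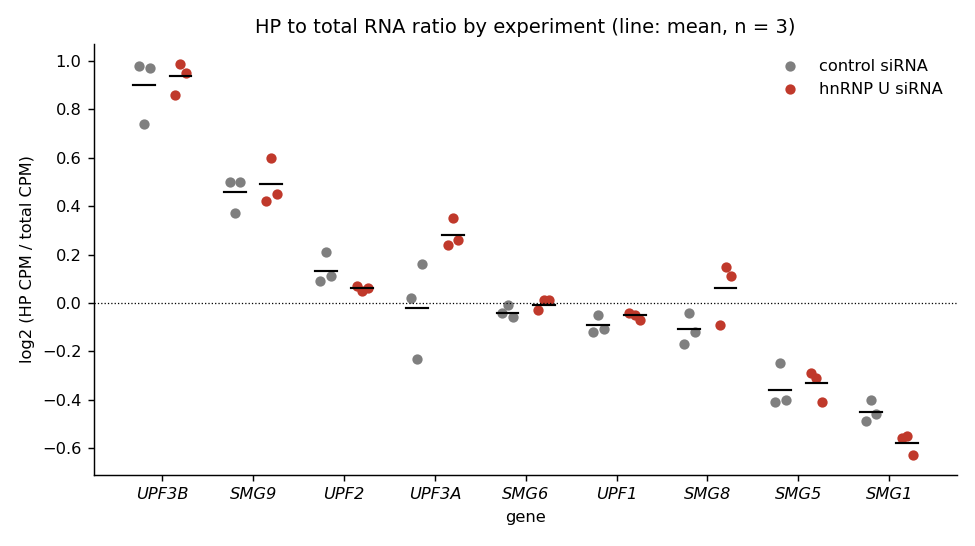
Log2 ratio of HP CPM to total CPM (y axis) of each NMD factor, for the 3 control siRNA (grey) and 3 hnRNP U siRNA (red) cultures; lines are means. UPF3B (0.74 to 0.99) and SMG9 (0.37 to 0.60) lie above 0, and SMG1 (−0.63 to −0.40) and SMG5 (−0.41 to −0.25) below it.

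The factors were then compared between heavy polysomes and total RNA within each siRNA, which asks how far each message is represented among heavily translated mRNAs. With control siRNA, UPF3B and SMG9 were higher in HP RNA than in total RNA, SMG1 and SMG5 were lower, and 5 members did not pass. Over all genes, 33.1% were called higher and 32% lower on heavy polysomes. UPF3B was at 26.6 ± 2.45 CPM in total RNA and 49.4 ± 0.943 CPM in HP RNA (SD, n = 3), a log2 difference of 0.90 (SE 0.07, adjusted p = 2.7e-08, edgeR quasi-likelihood). SMG9 was at 40.2 ± 2.57 and 55.2 ± 1.23 CPM (0.46, adjusted p = 7.7e-06, edgeR quasi-likelihood). For both, every HP library lay above every total RNA library.

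SMG1, whose transcript is by far the longest of the 9, was at 159 ± 3.65 CPM in total RNA and 117 ± 6.22 CPM in HP RNA of control cells, a log2 difference of −0.45 (SE 0.05, adjusted p = 2.4e-06, edgeR quasi-likelihood). SMG5 was at 115 ± 2.76 and 90.2 ± 5.69 CPM (−0.35, adjusted p = 4.3e-05, edgeR quasi-likelihood). The fractions did not overlap for either gene. With the experiment as a replicate block, which pairs HP with total RNA of the same experiment, UPF1 (−0.09, adjusted p = 0.023) and UPF2 (0.13, adjusted p = 0.0088) also passed in edgeR.

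With hnRNP U siRNA, 3 members were higher in HP RNA and 2 lower, where 34.4% of all genes were called higher and 33.7% lower. UPF3B (log2 difference 0.91), SMG9 (0.47), SMG1 (−0.60) and SMG5 (−0.36) passed as they did with control siRNA (adjusted p at most 3.5e-05, edgeR quasi-likelihood). UPF3A was higher as well, at 19.3 ± 1.41 CPM in total RNA and 23.4 ± 1.19 CPM in HP RNA (0.26, adjusted p = 0.0029, edgeR quasi-likelihood), with no overlap between fractions. With control siRNA UPF3A was at 14 and 13.8 CPM (−0.02, 95% confidence interval −0.20 to 0.17), and the test of that difference is the HP/total value above, which did not pass after adjustment. With the replicate block, UPF1 passed as lower (−0.08, adjusted p = 0.021, edgeR quasi-likelihood).

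The 9 gene identifiers named as SMG1 pseudogenes held 1.93% to 2.76% of the counts summed with SMG1. With their counts added to SMG1, the log2 changes stayed at 0.03 in total RNA, −0.12 in HP RNA, −0.45 for HP against total RNA with control siRNA and −0.60 with hnRNP U siRNA. Reads shared between SMG1 and these copies may have been assigned either way or dropped, so its level is uncertain. Adding so small a share of counts cannot show what dropped reads would do to its level or its changes.

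Per length, in CPM per kb of joined exons, the members spanned from 2.43 ± 0.206 (UPF3A) to 21.7 ± 0.52 (SMG5) in control siRNA total RNA. The order was SMG5, UPF1 (17.8), UPF2 (10.5), UPF3B (10.5), SMG8 (7.52), SMG1 (6.33), SMG9 (5.09), SMG6 (3.67) and UPF3A. Of the neighbours in this order, UPF2 and UPF3B overlapped over their 3 libraries. With hnRNP U siRNA, UPF3B (16.8) moved above UPF2 (11.2), and SMG8 (11.9) reached UPF2, with which it overlapped. The choice of length matters for the order. By the canonical transcript, UPF1 (29.9 CPM per kb) stood above SMG5 (25.3) and SMG1 (9.92) above SMG8 (8.74) in control siRNA total RNA.

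In HP RNA UPF3B was the highest member per length, at 19.5 ± 0.373 CPM per kb with control siRNA and 32.1 ± 1.18 with hnRNP U siRNA, above SMG5 (17 and 17.8) and UPF1 (16.7 and 19.7), which overlapped each other. By the canonical transcript UPF1 (28.1 CPM per kb) was above UPF3B (21.1) with control siRNA, and UPF3B (34.7) and UPF1 (33.0) were close with hnRNP U siRNA. SMG1 (4.35), SMG6 (4.19) and UPF3A (4.07) formed the low end with hnRNP U siRNA, where neighbours overlapped. By the canonical transcript this order was reversed, with UPF3A (9.87) above SMG6 (7.42) and SMG1 (6.82). With control siRNA UPF3A (2.4) was below SMG6 (3.58) and SMG1 (4.64) with no overlap. By the canonical transcript UPF3A (5.82 ± 0.431) and SMG6 (6.33 ± 0.297) were close with control siRNA.

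**Figure D4:**
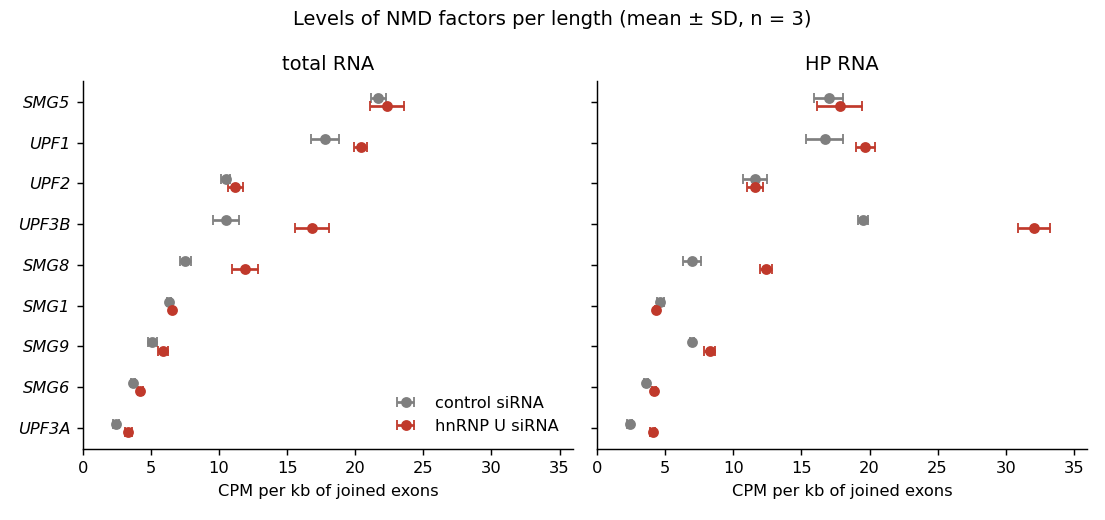
CPM per kb of joined exons (x axis, mean ± SD, n = 3) of each NMD factor with control (grey) and hnRNP U (red) siRNA, in total RNA and HP RNA. In HP RNA UPF3B lies to the right of all others, at 19.5 and 32.1 CPM per kb.

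Because SMG1, SMG8 and SMG9 act as 1 complex, their ratios per length were compared within each library. SMG8 to SMG1 was 1.14, 1.22 and 1.2 with control siRNA and 2.00, 1.8 and 1.71 with hnRNP U siRNA in total RNA. In HP RNA it was 1.42, 1.56 and 1.52 and then 2.79, 2.91 and 2.84. The silenced libraries were above the controls in both fractions, and the size of a ratio, but not its change between siRNAs, depends on the lengths used. SMG9 to SMG1 moved less, from 0.803 ± 0.0329 to 0.904 ± 0.0549 in total RNA and from 1.51 ± 0.0751 to 1.90 ± 0.0486 in HP RNA (SD, n = 3).

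UPF3B and UPF3A compete for UPF2, and the ratio UPF3B to UPF3A per length was 4.33 ± 0.256 with control siRNA and 5.02 ± 0.0774 with hnRNP U siRNA in total RNA. In HP RNA it was 8.17 ± 0.59 and 7.89 ± 0.128, overlapping values. The size of this ratio depends on the lengths used. By the canonical transcript UPF3B and UPF3A stood at 11.3 and 5.89 CPM per kb in control siRNA total RNA. The ratio UPF3B to UPF2 went from 0.995 ± 0.0688 to 1.5 ± 0.0969 in total RNA and from 1.69 ± 0.141 to 2.76 ± 0.0537 in HP RNA, with no overlap. SMG5 to SMG6 was 5.93 ± 0.191 with control siRNA and 5.30 ± 0.131 with hnRNP U siRNA in total RNA.

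Of 6 further NMD factors that are no members, 2 rose and 2 fell in total RNA, and 2 rose and 1 fell in HP RNA. Among all tested genes, 28% were called higher and 29.3% lower in total RNA, and 25.5% and 26.3% in HP RNA. DHX34, a helicase that promotes UPF1 phosphorylation, fell from 68.1 to 46.8 CPM in total RNA (log2 fold change −0.55, adjusted p = 8.7e-08, edgeR quasi-likelihood). NBAS, an NMD factor at the endoplasmic reticulum, fell by 0.40 on the log2 scale and MOV10, an RNA helicase that works with UPF1, rose by 0.28. RUVBL1, an ATPase, rose by 0.24 in total RNA.

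The exon junction complex marks spliced mRNAs for UPF3 proteins, and the cap-binding complex sits on the cap of newly made mRNAs. Of their genes, 5 of 12 genes rose and 4 fell in total RNA. SAP18 (0.36) and MAGOH (0.34) rose most. CASC3, a core exon junction protein, rose by 0.23, and MAGOHB, the paralogue of MAGOH, fell by 0.21. The list's median log2 fold change was 0.09 against 0 for all genes. In HP RNA 4 rose and 4 fell. The shares of all tested genes called higher and lower were 28% and 29.3% in total RNA and 25.5% and 26.3% in HP RNA.

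Of the translation termination genes, PABPC4, a poly(A)-binding protein, rose by 0.22, and the 3 others tested, ETF1, GSPT1 and PABPC1, did not pass. GSPT2 had too few counts. Of 11 mRNA decay genes, 2 rose and 6 fell in total RNA and 2 rose and 3 fell in HP RNA. All tested genes were called higher and lower at 28% and 29.3% in total RNA and at 25.5% and 26.3% in HP RNA. DCP2, the decapping enzyme that acts downstream of SMG5, fell from 130 to 53.1 CPM in total RNA (log2 fold change −1.29, adjusted p = 2.1e-11) and from 89.2 to 32.8 CPM in HP RNA (−1.48, adjusted p = 3.2e-11, edgeR quasi-likelihood for both). Its 3′ UTR holds 1 match to the antisense seed of each hnRNP U siRNA and 2 to the sense seed of siRNA 1. Among the 930 genes with the antisense match of siRNA 1, 59.9% were lower in total RNA, against 31.5% of the 11815 without it. The shares were 42.2% with and 32.3% without the antisense match of siRNA 2, and 43.8% and 32.3% for the sense match of siRNA 1. Its cofactors DCP1B (−0.55) and DCP1A (−0.23) fell too. DCP1A holds 2 antisense matches of siRNA 2 and 1 of the control siRNA, and no match of any strand was found for DCP1B. The part of these matches in the fall of DCP2 and DCP1A was not tested. In the same list SKIC2, a helicase of the SKI complex that feeds the exosome, rose by 0.33.

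Transcripts known as NMD substrates were listed to set beside the factors. Of 12 tested, 7 rose and 2 fell in total RNA, and 8 rose and 1 fell in HP RNA, with medians of 0.21 and 0.41. Over all genes, 28% were called higher and 29.3% lower in total RNA, with a median of 0. In HP RNA these shares were 25.5% and 26.3%, with a median of 0.01. UPP1, uridine phosphorylase (1.25), DDIT3 (0.95) and ATF3 (0.68), stress-response transcription factors, and TBL2 (0.89) rose most in total RNA. SNHG12, a snoRNA host gene, fell by 0.45 and GADD45B by 0.21. GAS5 and ZFAS1, snoRNA host genes often used as readouts of NMD, were at 120 and 114 CPM and at 43.8 and 40.0 CPM with control and hnRNP U siRNA, and neither passed (adjusted p = 0.33 and 0.056, edgeR quasi-likelihood). Several of these transcripts, ATF3, ATF4 and DDIT3 among them, are also induced by stress responses.

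**Figure D5:**
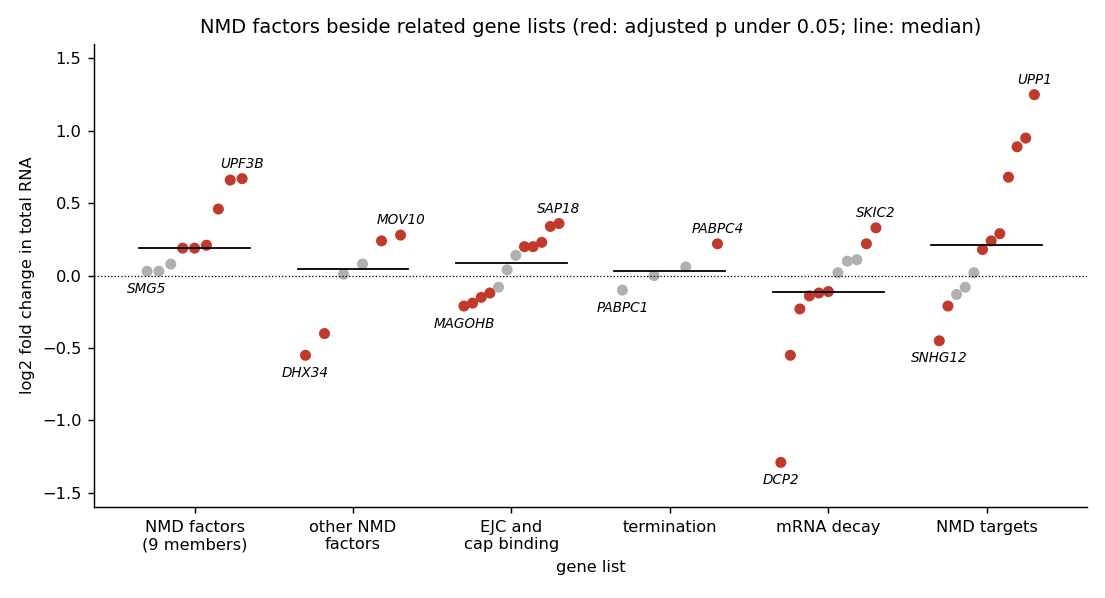
Log2 fold change in total RNA (y axis, hnRNP U over control siRNA) of the 9 NMD factors and of 5 related gene lists (x axis); each point is a gene, red where the adjusted p was under 0.05, and lines are list medians. The 9 members lie between 0.03 and 0.67, and DCP2 in the decay list is at −1.29.

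By pattern over the 12 libraries, the genes most like UPF3B, the member with the largest change in total RNA, were RFC5, GPATCH4 and MRM1. Each had a Pearson correlation of 0.996 with UPF3B in log2 CPM, among 9553 protein-coding genes, over libraries that share their experiments and scaling. The correlation follows differences between both siRNAs and both fractions and is a description of these libraries.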

How the data were processed

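The deposited values are raw gene counts, made by the authors from poly(A)-selected directional libraries aligned to hg38 with STAR. The submitters' processing notes name CASAVA 1.8 and STAR. The version of STAR and the strand setting of the counts are not given in the sources used here, and the table has 0 ERCC rows.

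Gene models and sequences came from GENCODE release 44 (GRCh38), which held 62639 of the 62703 identifiers. Genes were kept by filterByExpr (minimum count 10), scaled by TMM and tested with edgeR 4.0.16 (quasi-likelihood, R 4.3.3). Each comparison used the 6 libraries of its 2 groups, HP/total the interaction over 12, with Benjamini-Hochberg adjustment over all 15920 genes at 0.05. DESeq2 1.42.0, other scalings and filters, a replicate block and leaving out each library were alternatives. CPM are TMM-scaled.

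The p-values measure the spread of libraries within a group, where each library came from 1 of 3 experiments. For HP/total the main fit treated HP and total RNA of a culture as independent. With the culture as a block, 140 genes passed in edgeR, against 26 in the main fit, and 0 members passed in either. Counts have no molecular identifiers. Deviations from group means correlated by 0.096 to 0.134 (control siRNA) and 0.049 to 0.127 (hnRNP U siRNA) between HP and total RNA of 1 experiment. Between the siRNAs of 1 experiment they correlated by −0.004 to 0.084 within a fraction. Across fractions these values were −0.016 to 0.074 (control HP with hnRNP U total RNA) and −0.008 to 0.089 (control total with hnRNP U HP RNA). The titles of all 4 libraries of an experiment share a code.

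The members and lists were chosen with earlier results of these data known. The text names all 9 members, HNRNPU, up to 4 called genes per list by size of change in total RNA, and the 3 genes most like the member that changed most. SNHG12, GADD45B, GAS5, ZFAS1, the termination genes that did not pass, the HP values of DCP2 and the sense-strand seeds were chosen after values were seen. A gene of the list of further NMD factors is not reported here.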

Additional observations from a re-analysis of the deposited data

Results flagged for a closer look

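HNRNPU, the siRNA's target, fell more in HP RNA than in total RNA. Its interaction estimate was −1.09 on the log2 scale (95% confidence interval −1.26 to −0.92, adjusted p = 2.3e-07, edgeR quasi-likelihood), lower in 3 of 3 experiments, which marks an effect that differs between the fractions. None of the 9 NMD factors passed this test.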

How the results depend on the processing

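Of 644 values recomputed for the members under the alternatives, 623 kept their call or lack of it, 18 gained a call, 3 lost a call (SMG6 in HP RNA) and 0 reversed. The count of members called lower in HP RNA went from 0 to 1 with the replicate block (SMG1, log2 difference −0.13, adjusted p = 0.014, edgeR), and lay between 0 and 1 when each library was left out. The block changed no other call of a member between the siRNAs. Libraries of 1 experiment with different siRNAs share an experiment code, and their deviations correlated weakly (−0.004 to 0.056 in total RNA and 0.028 to 0.084 in HP RNA). The count called lower in HP against total RNA went from 2 to 4 with upper-quartile factors for control siRNA (UPF1 and SMG8 added) and from 2 to 4 for hnRNP U siRNA (UPF1 and SMG6 added). That scaling moved the median of all genes from −0.03 to −0.11 and from −0.02 to −0.11. With libraries left out, the control siRNA count lay between 2 and 4, with 4 without control siRNA HP library 2. The log2 fold changes of the 6 called members in total RNA ranged from 0.15 to 0.23 for UPF1, 0.39 to 0.51 for UPF3A, 0.62 to 0.75 for UPF3B, 0.17 to 0.23 for SMG6, 0.60 to 0.71 for SMG8 and 0.16 to 0.26 for SMG9. UPF3A, at 416 to 823 counts per library, was the least deeply counted member.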
